A study of Mus musculus with 8 samples.

Results

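The globin loci of the mouse were examined in ATAC-seq peak lists of bone marrow progenitors, from 60 kb before to 60 kb after the alpha-globin genes Hba-x, Hba-a1 and Hba-a2 on chromosome 11 and the beta-globin genes Hbb-y, Hbb-bh1, Hbb-bs and Hbb-bt on chromosome 7. ATAC-seq marks open chromatin by where the transposase Tn5 can insert sequencing adapters, and a peak is a stretch with more fragments than its surroundings. The windows were chr11:32216400-32357298 and chr7:103752524-103913216 (mm10). Every peak with its summit, the position of highest pileup, inside a window was taken, so the rule uses positions alone, although the loci were picked with earlier results of these data known. This gave 182 of the 501728 peaks of the series on chromosomes 1 to 19 and X, and they merged into 47 regions out of 123260, 26 of them at the alpha-globin and 21 at the beta-globin locus.

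The 8 libraries came from female mice of the label strain 129Sv4/Jae x B6, aged 4.5 months, with about 10000 cells per reaction. LSK+ cells were lineage-negative, Sca-1-positive and c-Kit-positive cells, the compartment of stem and multipotent progenitor cells, and LSK- cells were lineage-negative, Sca-1-negative and c-Kit-positive myeloid and erythroid progenitors. The lineage cocktail contained TER-119, a surface marker of maturing red cells, so late erythroid cells were gated out of both. Each cell type was sorted from wild type mice (WT) and from mice in which a floxed Xist gene had been deleted on both X chromosomes (XistΔ/Δ) by Vav-iCre, a transgene that is active throughout the blood system. There were 2 replicates in each of the 4 groups, which the study calls biological. The number of mice behind a library, and whether WT mice carried the Cre transgene, were not given in the sources used here.

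Hemoglobin is made of alpha-type and beta-type globin chains around heme. In the mouse, Hba-x, Hbb-y and Hbb-bh1 are used in the embryo, while Hba-a1, Hba-a2, Hbb-bs and Hbb-bt serve the adult red cell. The alpha-globin genes answer to a group of enhancers called R1, R2, R3, Rm and R4, most of which lie in introns of the neighbouring gene Nprl3. The beta-globin genes answer to the locus control region, a row of hypersensitive sites upstream of Hbb-y. GATA1, KLF1, NF-E2 and TAL1 with its partners are the erythroid factors best known to bind these elements, by the motifs GATA, CACCC, NF-E2 and E-box.

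The sequences of the elements described below are given as 200 bases centred on the median summit of the region. All are read from the plus strand of GRCm38.p6. Capitals mark matches on either strand to 3 motifs. The GATA motif was searched as AGATAA or TGATAA. The CACCC box was searched as CCNCNCCC. The letters TGANTCA stood for NF-E2 and are also the AP-1 motif. Overlapping matches run together. The first 3 are alpha-globin enhancers, the next is a region of the same Nprl3 introns that had the opposite pattern, and the last 3 are the beta-globin control regions with peaks in every LSK- library.
R1, chr11:32245691-32245890: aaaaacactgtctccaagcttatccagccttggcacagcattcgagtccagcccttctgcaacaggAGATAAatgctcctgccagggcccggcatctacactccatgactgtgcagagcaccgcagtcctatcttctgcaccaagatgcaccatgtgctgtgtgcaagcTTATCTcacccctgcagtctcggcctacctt
R2, chr11:32250929-32251128: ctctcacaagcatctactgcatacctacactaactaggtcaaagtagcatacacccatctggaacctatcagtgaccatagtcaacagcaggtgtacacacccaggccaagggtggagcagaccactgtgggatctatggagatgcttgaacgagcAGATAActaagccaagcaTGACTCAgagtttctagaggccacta
R3, chr11:32256202-32256401: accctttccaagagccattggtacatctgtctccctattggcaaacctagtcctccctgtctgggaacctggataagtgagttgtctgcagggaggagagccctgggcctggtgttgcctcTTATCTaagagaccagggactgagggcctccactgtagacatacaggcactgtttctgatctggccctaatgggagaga
Nprl3 intron, 29.1 kb before Hba-x, chr11:32247193-32247392: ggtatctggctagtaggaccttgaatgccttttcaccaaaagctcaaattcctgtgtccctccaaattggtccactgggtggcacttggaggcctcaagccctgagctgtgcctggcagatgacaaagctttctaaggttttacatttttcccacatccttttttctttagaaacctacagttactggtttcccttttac
7.9 kb before Hbb-y, chr7:103860973-103861172: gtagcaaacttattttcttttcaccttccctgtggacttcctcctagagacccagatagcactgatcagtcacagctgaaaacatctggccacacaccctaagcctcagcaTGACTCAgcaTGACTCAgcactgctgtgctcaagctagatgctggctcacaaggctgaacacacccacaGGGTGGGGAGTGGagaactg
12.7 kb before Hbb-y, chr7:103865811-103866010: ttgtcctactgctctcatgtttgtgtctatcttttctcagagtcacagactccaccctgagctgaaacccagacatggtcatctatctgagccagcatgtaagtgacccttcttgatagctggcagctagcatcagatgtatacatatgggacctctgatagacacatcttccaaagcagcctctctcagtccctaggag
17.6 kb before Hbb-y, chr7:103870730-103870929: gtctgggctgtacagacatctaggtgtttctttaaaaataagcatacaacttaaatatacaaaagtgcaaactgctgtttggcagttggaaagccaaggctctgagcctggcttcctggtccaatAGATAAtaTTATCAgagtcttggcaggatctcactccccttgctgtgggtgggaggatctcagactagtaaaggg

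R1 and the region 17.6 kb before Hbb-y each hold 2 GATA matches, and R2 holds 1 GATA match next to an NF-E2 match. The region 7.9 kb before Hbb-y holds a tandem pair of NF-E2 matches and no GATA match in these 200 bases. The region 12.7 kb before Hbb-y holds none of the 3 motifs in this window, which says only that those letters are not in it.

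The lists held between 29829 and 91590 peaks, and the background pileup, a proxy of depth solved from the peak statistics, ran from 0.482 fragments in LSK+ WT replicate 2 to 3.87 in LSK- XistΔ/Δ replicate 1. A library with fewer fragments can call fewer peaks, so "no peak" means that no stretch passed the caller, not that the chromatin was closed. The weakest peak of a list had between 5 and 13 fragments at its summit. Of the 13 globin regions found in a single library, 9 came from LSK- XistΔ/Δ replicate 1, which also held 41.9% of all single-library regions of the series. The Xist promoter had a peak in all 4 WT libraries, at percentiles of 51.3 to 80.6, and in 1 of 4 XistΔ/Δ libraries, LSK- replicate 2, at 26.9. Ly6a, which encodes Sca-1, had no promoter peak in any library, and Kit had one in all 8. Of the LSK- markers, Gata1 and Epor had higher percentiles in LSK- libraries without overlap. Pax5 was the one B cell gene of the list with a peak, at a percentile of 0.519 in 1 library, and Cd3e and Cd3g of the T cell list had none, while Lck had one in all 8. Of 5 neutrophil genes, Camp was higher in LSK- and Ltf higher in LSK+ libraries, and the summed percentile of the list ran from 46.6 to 109.9 in LSK+ and from 37.0 to 221 in LSK- libraries.

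Values are given below as percentiles. Each list was ranked by the −log10 p of its peaks, 100 being the strongest peak of a library and 0 standing for no peak. Each group is a pair of libraries, with values in the order replicate 1, replicate 2. Distances are from the start site of Hba-x or Hbb-y along the direction of globin transcription. Because LSK- cells are a mixture, a lower percentile in bulk can come from fewer cells with an open site or from less accessibility in each cell, and these cannot be told apart.

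At the alpha-globin locus, the enhancers in the Nprl3 introns split into those seen in LSK- cells alone and one seen in both cell types. R1 (chr11:32245372-32246085, an Nprl3 intron, 30.6 kb upstream) had no peak in the 4 LSK+ libraries. Its percentiles were 87.9 and 76.5 in the LSK- WT pair and 93.9 and 77.3 in the LSK- XistΔ/Δ pair. The 2 cell types did not overlap. The summit pileups were 77, 49, 251 and 49 fragments, or 52.2, 49.4, 64.9 and 41.4 times the background pileup of the library, so the spread of the raw pileups became narrower once depth was taken into account.

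R2 (chr11:32250784-32251399, 25.4 kb upstream), known as a strong enhancer of the adult alpha-globin genes, ranked below R1. It had no peak in LSK+ libraries, 65.3 and 53.9 in the LSK- WT pair, 82.2 in LSK- XistΔ/Δ replicate 1 and no peak in LSK- XistΔ/Δ replicate 2. R3 (chr11:32255977-32256753, 20.1 kb upstream) had the same pattern at 54.9, 31.3, 80.1 and no peak. In these 3 LSK- libraries the order was R1, R2, R3 each time, and LSK- XistΔ/Δ replicate 2 had R1 alone of the 3.

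Rm (chr11:32265027-32265418, 11.1 kb upstream) differed from its neighbours in that LSK+ cells had it too. It reached 74.7 and no peak in the LSK+ WT pair, 88.8 and 47.0 in the LSK+ XistΔ/Δ pair, 87.9 and no peak in the LSK- WT pair, and 86.4 and 62.6 in the LSK- XistΔ/Δ pair. The libraries without it were the WT replicate 2 libraries, which hold the 2 shortest lists. The mean difference of LSK- minus LSK+ was 6.61 ± 11.7 percentile points (SE of the limma fit with the replicate block).

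The rule for R4, within 1.5 kb of 8 kb upstream, picked the promoter of Nprl3 (chr11:32267217-32268037), a peak of 78.5 to 92.6 in all 8 libraries. A separate intergenic region lay 7.3 kb upstream (chr11:32268914-32269420), with peaks of 28.9 in LSK- WT replicate 1 and 75.0 in LSK- XistΔ/Δ replicate 1 and none elsewhere. It is named here after its values were seen, and it holds 1 GATA match. Both libraries with this peak were replicate 1 libraries.

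One region of the Nprl3 introns went the other way. The region 29.1 kb upstream (chr11:32247064-32247811) is the next region after R1. It had percentiles of 81.1 and 37.0 in the LSK+ WT pair and of 79.2 and 67.1 in the LSK+ XistΔ/Δ pair. In LSK- cells it had 33.4 and no peak in WT and 33.7 and 30.96 in XistΔ/Δ, so each LSK+ library lay above each LSK- library. These neighbouring regions thus had opposite order between the cell types. The difference was −41.6 ± 11.1 points with the replicate block, which did not pass the threshold (limma adjusted p = 0.0881). No GATA, CACCC or NF-E2 match was present in its 200 bases.

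**Figure D1:**
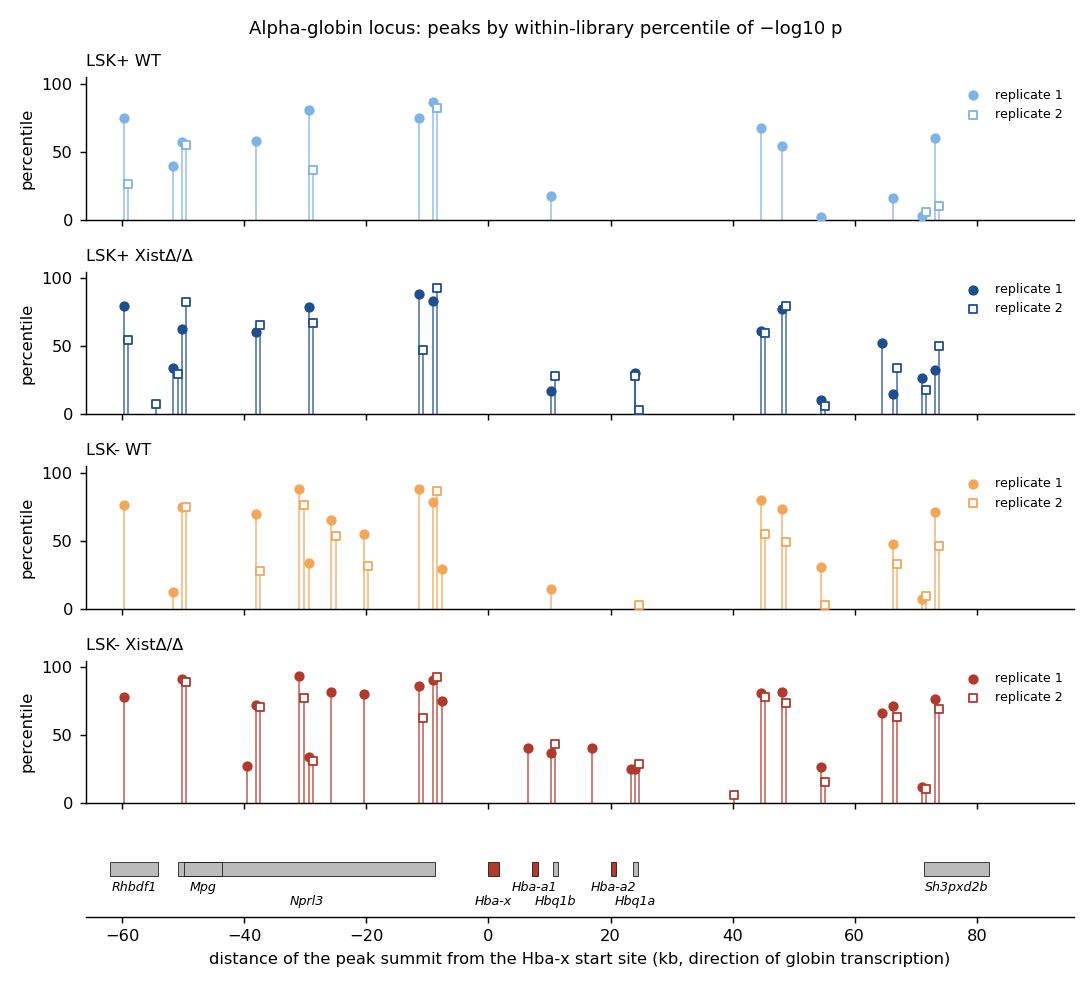
Peaks at the alpha-globin locus in the 4 groups, with the distance of the summit from the Hba-x start in kb on the x axis and the within-library percentile of −log10 p on the y axis. Filled circles are replicate 1 and open squares replicate 2, boxes below are genes (members in red), and R1, R2 and R3 appear as peaks between −31 and −20 kb in the LSK- panels but not in the LSK+ panels.

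Beyond the enhancers, the flanks of the alpha-globin cluster were open in both cell types. The promoter of Mpg, a DNA repair enzyme gene, had a peak in all 8 libraries, at 55.2 to 82.4 in LSK+ and 74.5 to 91.3 in LSK- cells. A region 37.8 kb upstream in an Nprl3 intron was present in 7 libraries, and so were the regions 45.0, 48.4, 54.8 and 66.6 kb downstream of the Hba-x start, past the globin genes. LSK+ WT replicate 2, the shortest list, was the library without a peak in each of these 5. A region of a Rhbdf1 intron 59.3 kb upstream had peaks in all 4 LSK+ libraries (26.4 to 79.95) and in the replicate 1 libraries of LSK- cells. The intergenic region at 51.2 kb had peaks in 3 LSK+ libraries (29.5 to 39.3) and in LSK- WT replicate 1 (12.6). At 73.4 kb downstream, in an intron of Sh3pxd2b, all 8 libraries had a peak, from 10.3 to 76.4. The promoter of that gene was weak in all 8, from 2.94 to 26.9.

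The alpha-globin promoters themselves were almost without peaks. Hba-x and Hba-a2 had no peak within 1 kb of a start site in any library. Hba-a1 had one, in LSK- XistΔ/Δ replicate 1, at 40.8 (chr11:32283242-32283520). A peak of almost the same rank, 40.5, lay within 3 kb of the start of Hba-a2 in the same library, which has the longest list. This second peak (chr11:32293616-32293841) was more than 1 kb before the start, so it was not at the position of the Hba-a1 peak. The theta-like genes Hbq1b and Hbq1a, which lie next to Hba-a1 and Hba-a2, had weak peaks in 6 and 5 libraries, at up to 43.3 and 30.3.

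Hba-a1 and Hba-a2 are near copies, and the mapping filter of the study removed reads whose mapping quality was under 30. The 150 bases before each RefSeq start are shown to let the 2 copies be compared, with CCAAT box, CACCC box and GATA matches in capitals, in the direction of transcription.
Hba-a1, chr11:32283522-32283671, plus strand: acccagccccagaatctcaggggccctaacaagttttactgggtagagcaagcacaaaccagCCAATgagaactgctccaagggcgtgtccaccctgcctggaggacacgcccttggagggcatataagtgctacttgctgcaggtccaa
Hba-a2, chr11:32296342-32296491, plus strand: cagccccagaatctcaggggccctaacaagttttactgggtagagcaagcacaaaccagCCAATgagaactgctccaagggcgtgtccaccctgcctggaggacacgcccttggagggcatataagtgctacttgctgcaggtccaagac

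The 250 bases before the starts shared an unbroken run of 247 bases, offset by the 3 bases between the 2 annotated starts, and the gene bodies were 98.7% identical. Within 500 bp of the RefSeq start, 10.7% of the 50-base words of Hba-a1 and 8.82% of those of Hba-a2 occurred once in the genome. With 100-base words these shares were 16.5% and 14.9%. Around Hba-x, which has no close copy, the share was 100% at both word lengths, and it too had no peak in any library. For the adult alpha-globin promoters, no peak and no uniquely mapped reads cannot be told apart in these lists.

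**Figure D2:**
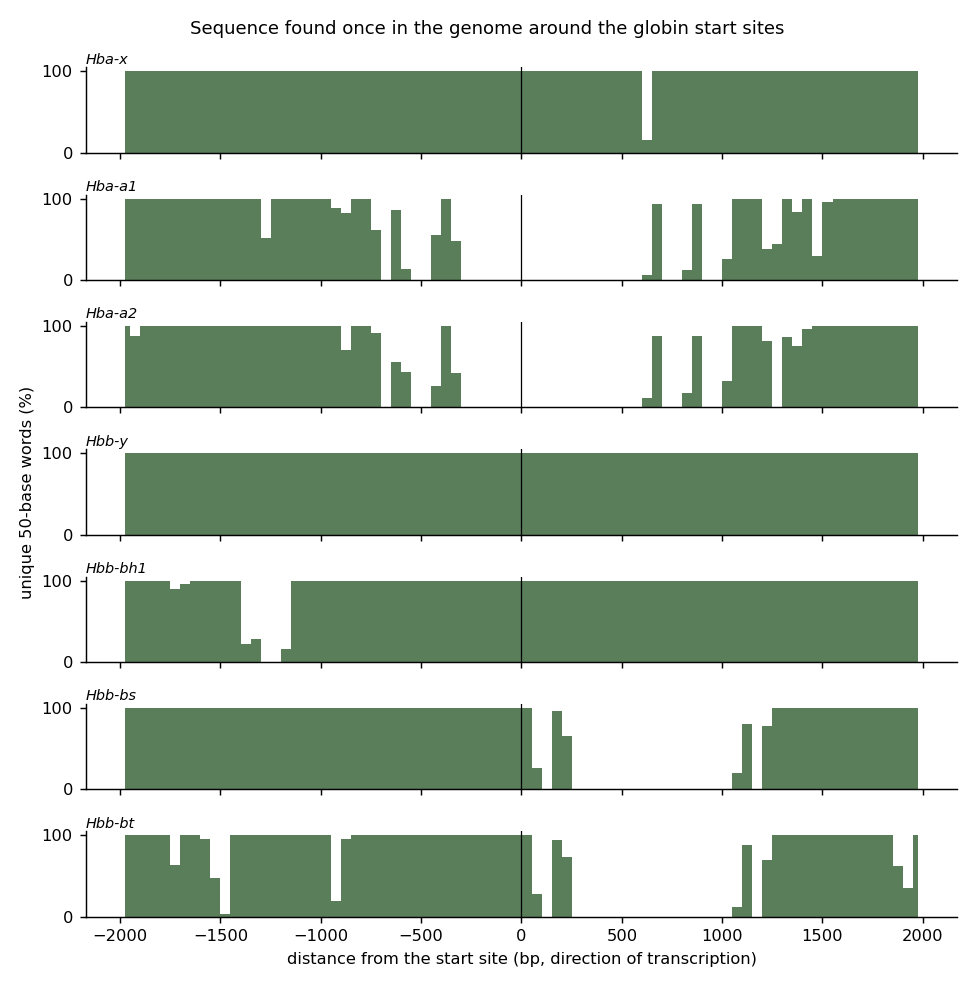
Share of 50-base words that occur once in GRCm38.p6 (y axis, percent, in bins of 50 bp) against the distance from the start site in bp, for the 7 member genes. The start site is the RefSeq start, or for Hbb-bh1 the GENCODE start. The blank stretch over the starts of Hba-a1 and Hba-a2 contrasts with full bars from −825 to 25 bp at Hbb-bs and Hbb-bt. Further upstream Hbb-bt has gaps, and both Hbb-bs and Hbb-bt are blank from 275 to 1025 bp.

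At the beta-globin locus, 8 of the 13 regions found in at least 2 libraries had peaks in LSK- libraries alone, and 6 did when LSK- XistΔ/Δ replicate 1 or LSK- WT replicate 1 was left out. Over the series the share was 15.7%, and 6.81% and 8.45% with these libraries left out in that order. Such regions are among the 13 through their LSK- peaks alone, so the count is a description. Of all 21 beta-globin regions, 8 were found in a single library. The region 17.6 kb before Hbb-y (chr7:103870604-103871009, intergenic) had no LSK+ peak and reached 86.5 and 59.3 in the LSK- WT pair and 87.2 and 51.8 in the LSK- XistΔ/Δ pair. The region 12.7 kb before Hbb-y (chr7:103865680-103866181) had no LSK+ peak, with 63.1 and 62.3 in the LSK- WT pair and 85.3 and 61.3 in the LSK- XistΔ/Δ pair. Both were complete in LSK- cells, and in neither did the genotypes separate.

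The region 7.9 kb before Hbb-y (chr7:103860916-103861924), which carries the tandem NF-E2 matches, was the one beta-globin region with a peak in all 8 libraries. Its percentiles were 69.5 and 37.9 in the LSK+ WT pair, 76.0 and 60.2 in the LSK+ XistΔ/Δ pair, 79.4 and 72.1 in the LSK- WT pair, and 85.4 and 77.1 in the LSK- XistΔ/Δ pair. Each LSK- library was above the LSK+ library of the same genotype and replicate, but the cell types overlapped. The difference was 17.6 ± 5.70 points with the replicate block (limma adjusted p = 0.119). At the summit, its pileup over the background was 22.8 to 31.9 in LSK+ and 38.3 to 42.2 in LSK- libraries. How many regions of the series have separate cell types on this scale was not counted. The limma fit on summit pileup did not call this region, while it called 16.6% of all regions.

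Weaker sites flanked these. The region 6.1 kb before Hbb-y (chr7:103859006-103859529) had peaks in LSK- WT replicate 1 (66.8) and in both LSK- XistΔ/Δ libraries (79.6 and 26.4). A region 1.7 kb before Hbb-y (chr7:103854621-103855055) had them in the same 3 libraries at 47.4, 76.4 and 11.3. The region 24.1 kb before Hbb-y (chr7:103877036-103877597), with 3 GATA matches, had them in the replicate 1 libraries of LSK- cells at 47.6 and 82.8. None of these had an LSK+ peak. LSK- WT replicate 2, with 37578 peaks the shortest LSK- list, lacked all 3.

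A site far upstream, 57.0 kb before Hbb-y (chr7:103909769-103910630, intergenic), had the highest rank of the beta-globin regions in 3 of the 4 LSK- libraries, the exception being LSK- WT replicate 2. It reached 55.6 and no peak in the LSK+ WT pair, 75.8 and 55.1 in the LSK+ XistΔ/Δ pair, 91.8 and 68.2 in the LSK- WT pair, and 95.2 and 77.3 in the LSK- XistΔ/Δ pair. Its LSK- minus LSK+ difference was 36.6 ± 7.70 points, which missed the threshold by little (limma with replicate block, adjusted p = 0.0509).

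**Figure D3:**
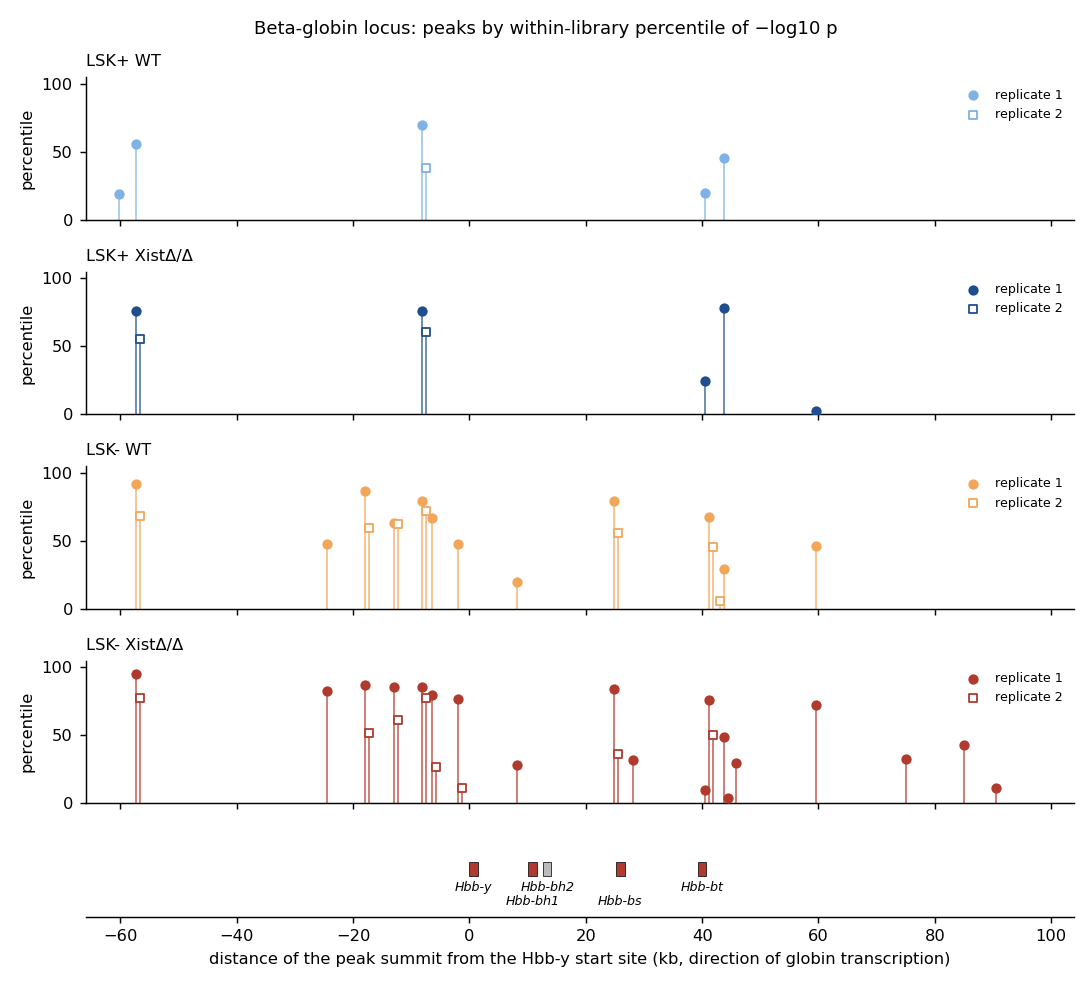
Peaks at the beta-globin locus in the 4 groups, with the distance of the summit from the Hbb-y start in kb on the x axis (negative is upstream) and the within-library percentile of −log10 p on the y axis. Symbols are as at the alpha-globin locus, member genes are red boxes, and the LSK+ panels hold a shared peak at −7.9 kb while the LSK- panels add peaks at −17.6, −12.7, 25.2 and 41.5 kb in both replicates.

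Of the beta-globin promoters, that of Hbb-bs had peaks and the other 3 did not. The Hbb-bs peak (chr7:103827742-103828208, over the RefSeq start) was absent in LSK+ cells and reached 79.1 and 55.7 in the LSK- WT pair and 84.1 and 36.5 in the LSK- XistΔ/Δ pair. Hbb-bt, the other adult gene, had no peak within 1 kb of its start in any library, and neither had the embryonic genes Hbb-y and Hbb-bh1. A peak 41.5 kb downstream of the Hbb-y start (chr7:103811434-103811794), just past the 3' end of Hbb-bt, had no LSK+ counterpart and reached 67.7 and 45.6 in the LSK- WT pair and 75.8 and 50.3 in the LSK- XistΔ/Δ pair. Close to it, regions at 44.1 and 40.9 kb were not of the LSK- kind: the first had 45.6 and 78.4 in the replicate 1 libraries of LSK+ cells and 29.0 and 48.6 in those of LSK- cells.

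The bases before the 2 adult beta-globin starts are shown in the direction of transcription, because one promoter had a peak and the other did not. Capitals mark CCAAT box, CACCC box and GATA matches.
Hbb-bs, chr7:103827929-103828078, minus strand: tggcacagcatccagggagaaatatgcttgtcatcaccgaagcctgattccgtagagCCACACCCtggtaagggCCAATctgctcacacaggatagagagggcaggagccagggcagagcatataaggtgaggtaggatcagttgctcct
Hbb-bt, chr7:103813924-103814073, minus strand: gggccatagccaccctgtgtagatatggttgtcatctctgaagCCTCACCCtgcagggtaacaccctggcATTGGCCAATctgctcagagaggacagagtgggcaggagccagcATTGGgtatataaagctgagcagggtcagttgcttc

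Both hold a CACCC box and a CCAAT box. Across all 27025 RefSeq promoters, 37.9% hold the CACCC box letters and 25.3% the CCAAT letters in the same 150 bases. The 250 bases before the starts were 70.9% identical with a longest shared run of 14 bases, unlike the gene bodies, which were 95.7% identical and shared a run of 906 bases. Within 500 bp of the RefSeq start, 65.1% of the 50-base words of Hbb-bs and 65.6% of those of Hbb-bt occurred once in the genome. Within 500 bp of the GENCODE gene start the shares were 82.75% for Hbb-bs and 73.19% for Hbb-bt. The GENCODE start lies further upstream of the RefSeq start in Hbb-bs than in Hbb-bt, so these windows do not cover matching sequence. The part of mappability in the missing Hbb-bt peak was not tested. The reference is the C57BL/6J genome, and the animals also carry 129Sv4/Jae chromosomes. The fit of 129Sv4/Jae sequence to the reference at Hbb-bt was not tested.

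The comparison of LSK- with LSK+ cells asks which globin elements are open before and after commitment to the myeloid and erythroid branch. A peak in at least 2 LSK- libraries and in no LSK+ library was found for 12 of the 34 globin regions seen in at least 2 libraries, 4 at the alpha-globin and 8 at the beta-globin locus, against 15.7% of the 92019 regions of the series. The count was 9 without LSK- WT replicate 1 (8.45% of all regions) and 9 without LSK- XistΔ/Δ replicate 1 (6.81%), and 12 without each of the other LSK- libraries. Regions without an LSK+ peak are among the 34 through their LSK- peaks alone, so these counts are a description. LSK- percentiles lay above LSK+ percentiles without overlap in 5 of the 34, against 4.78% of all regions, and LSK+ percentiles lay above in 1, against 2.75%. The 5 were R1, the Hbb-bs promoter, and the beta-globin regions at −17.6, −12.7 and 41.5 kb, and the 1 was the Nprl3 intron region at 29.1 kb upstream. The median difference of LSK- minus LSK+ was 14.2 points over the 21 alpha-globin regions and 33.8 over the 13 beta-globin regions, beside 1.31 over all regions. Within a replicate number, the beta-globin median was 47.4 in replicate 1 and 0 in replicate 2 for WT and 75.8 and 16.9 for XistΔ/Δ, and the alpha-globin median was 11.7 and 3.74 for WT and 15.7 and 0 for XistΔ/Δ. The medians over all regions were between 0 and 0.669.

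The fit of limma across all 92019 regions called none of them in either direction when the replicate number was left out, with 14580 regions and 11 of the 34 at an unadjusted p under 0.05. The replicate number also marks the sequencing instrument and read length, which the study's sequencing table lists as one kind for every first replicate and another for every second. With it as a block, 5 of the 34 were called higher in LSK- cells, against 2.1% of all regions, and 0 were called higher in LSK+ cells, against 0.876%. The 5 were those whose groups did not overlap. All 5 had the substituted 0 in every LSK+ library and entered the fit through LSK- libraries alone, so their LSK+ values carry no spread and the calls are given as a description. R1 had a difference of 83.9 ± 10.2 points (limma with replicate block, adjusted p = 0.0235), the −17.6 kb region 71.2 ± 11.8 (adjusted p = 0.0301) and the −12.7 kb region 68.01 ± 11.03 (adjusted p = 0.0288). The Hbb-bs promoter followed with 63.8 ± 12.6 (adjusted p = 0.0433) and the 41.5 kb region with 59.9 ± 11.1 (adjusted p = 0.0377). Without the block the adjusted p-values of these 5 were between 0.136 and 0.200. R2 at 50.3 ± 15.6 and R3 at 41.6 ± 14.7 did not pass (adjusted p = 0.112 and 0.138 with the block).

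**Figure D4:**
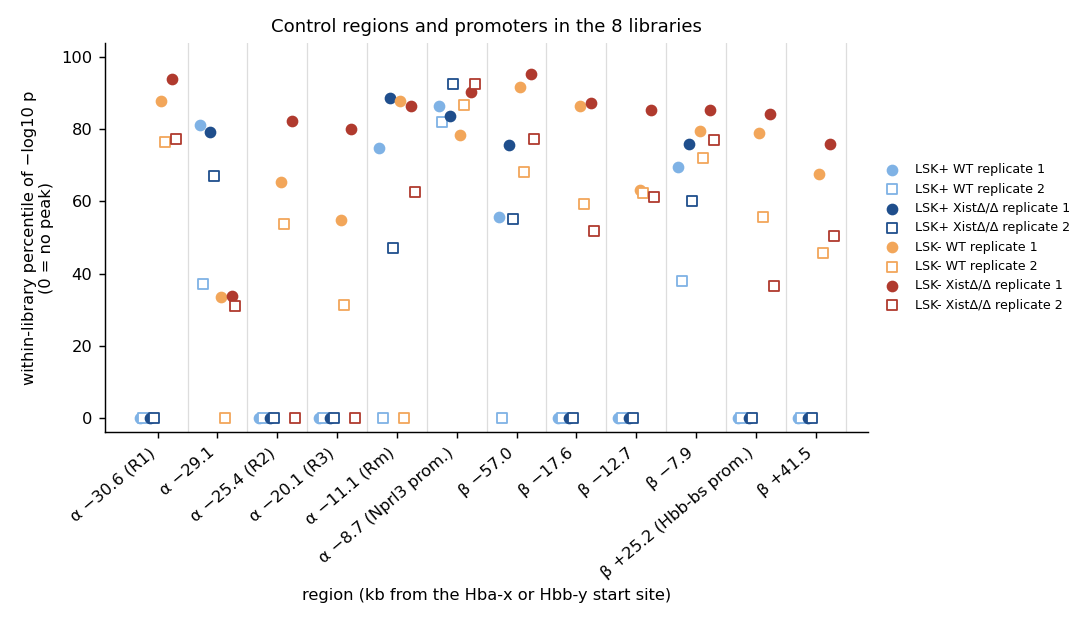
Percentile of −log10 p (y axis, 0 for no peak) of 12 control regions and promoters in each of the 8 libraries, with colours for the 4 groups, circles for replicate 1 and squares for replicate 2. The LSK+ libraries sit at 0 for R1, R2, R3, the −17.6 and −12.7 kb regions, the Hbb-bs promoter and the 41.5 kb region, and above 0 in all 4 for the −29.1, −8.7 and −7.9 kb regions.

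The number of peaks at the beta-globin locus was 6 and 1 in the LSK+ WT pair, 5 and 2 in the LSK+ XistΔ/Δ pair, 12 and 7 in the LSK- WT pair, and 19 and 8 in the LSK- XistΔ/Δ pair. Every LSK- library had more than every LSK+ library. The means were 11.5 ± 5.45 (SD, n = 4) and 3.5 ± 2.38 (SD, n = 4), and a two-sided exact permutation test gave p = 0.0556, which is the lowest value that 4 against 4 can reach when labels move within genotype (adjusted over 4 comparisons, exact p = 0.222). With equal list lengths, and also with a stricter q threshold, the lowest LSK- library tied with the highest LSK+ library (exact permutation p = 0.111 in each setting). At the alpha-globin locus the numbers were 14 and 6, 16 and 17, 18 and 13, and 23 and 15 in the same order, with overlapping cell types (exact permutation p = 0.333). The covered length was 238 to 2809 bp in LSK+ and 1699 to 7997 bp in LSK- libraries at the beta-globin locus, and 2085 to 7305 bp and 3488 to 10228 bp at the alpha-globin locus.

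The comparison of XistΔ/Δ with WT asks whether loss of Xist, whose direct targets are X-linked, is accompanied by a change at these autosomal loci. No globin region was called by limma, with or without the replicate block (3 and 6 of 34 at an unadjusted p under 0.05), and no region of the series was called either (7588 and 17362 of 92019 at an unadjusted p under 0.05). Within LSK+ cells, within LSK- cells and for the difference between the 2 cell types in the genotype effect, limma also called 0 globin regions and 0 of all regions in both fits. At an unadjusted p under 0.05 the difference between cell types had 0 of the 34 globin regions without and 0 with the block, and 2145 and 3024 of all regions. XistΔ/Δ percentiles lay above WT without overlap in 2 of the 34 globin regions, against 4.33% of all regions, and WT above XistΔ/Δ in 0, against 0.00326%. The 2 were weak peaks at promoters, those of Hbq1a, with at most 2.54 in WT and at least 3.21 in XistΔ/Δ libraries, and of Sh3pxd2b. The median difference of XistΔ/Δ minus WT was 13.3 points at the alpha-globin and 7.21 at the beta-globin locus, beside 9.78 over all regions. XistΔ/Δ libraries had deeper background pileups and more peaks than the WT library of the same cell type and replicate in all 4 pairs, and the part of depth in this shift was not tested.

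Within the LSK- cells, the genotype difference varied with the replicate. In replicate 1, all 13 beta-globin regions were higher in XistΔ/Δ, against 63.55% of all regions of the series, and R1, R2 and R3 were higher too. The XistΔ/Δ library of this replicate, the longest list, had a peak in each of the 13. The regions 8.4 kb downstream and 24.1 kb upstream of the Hbb-y start were among them through LSK- replicate 1 libraries alone. In the share over all regions, those without a peak in either library count as not higher. The count of 13 is therefore a description. In replicate 2, R2 and R3 lost their peak in XistΔ/Δ, and R1 was 0.747 points higher. Of the 13 beta-globin regions 3 were lower and 5 higher in replicate 2, where 57.95% of all regions were higher. The Hbb-bs promoter went from 79.1 to 84.1 in replicate 1 and from 55.7 to 36.5 in replicate 2. The background pileups of the WT and XistΔ/Δ libraries were 1.47 and 3.87 in replicate 1 and 0.992 and 1.19 in replicate 2. The difference in peak number was within the spread between libraries. The number of peaks at the alpha-globin locus by genotype turned from a difference of 5 to −0.25 with equal list lengths, and the number of peaks at the beta-globin locus by genotype from 2 to −1.5 without LSK- XistΔ/Δ replicate 1. The number was 17.8 ± 3.59 in XistΔ/Δ and 12.8 ± 4.99 in WT (SD, n = 4, exact permutation p = 0.222) at the alpha-globin locus and 8.5 ± 7.42 and 6.5 ± 4.51 (SD, n = 4, exact permutation p = 0.667) at the beta-globin locus.

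The promoters of genes that act with the globins differed by group. Of 10 red cell membrane genes, 9 had a promoter peak, 7 had higher percentiles in LSK- cells without overlap, and 5 were called by limma with the replicate block (among them Sptb, Ank1 and Kel). Sptb, which encodes a spectrin chain of the red cell skeleton, had 2.44 to 45.6 in LSK+ and 75.8 to 93.8 in LSK- cells. Slc4a1, the anion exchanger band 3, had no peak in any library. The median difference over the list was 51.7 points.

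The heme and hemoglobin assembly genes were different. Of the 12 that could be matched to the annotation, 10 had a peak in all 8 libraries. Epor, the erythropoietin receptor gene, was the one higher in LSK- without overlap, at 35.97 to 85.4 in LSK+ and 87.3 to 95.0 in LSK- cells. None was called with the block. Alas2, the erythroid form of the first heme enzyme, had a single peak, at 7.67 in LSK+ XistΔ/Δ replicate 1, and Slc25a37 had none. Ahsp could not be matched. The median difference was 1.06 points.

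All 16 globin regulators had a promoter peak, 13 of them in all 8 libraries, and none was called. Gata1 was the one that did not overlap, with no LSK+ peak and with 29.6 and 28.7 in the LSK- WT pair and 72.7 and 41.2 in the LSK- XistΔ/Δ pair. Klf1 was open in both cell types, at 90.0 to 94.7 in LSK+ and 78.5 to 92.5 in LSK- cells, and so were Tal1, Ldb1, Lmo2 and Zfpm1. Bcl11a, a repressor of the embryonic globin genes, had 27.6 to 52.1 in LSK+ and 29.2 to 71.1 in LSK- cells, and Nfe2 had no peak in the replicate 1 libraries of LSK- cells. The regulators' median difference was 3.33 points. Of the markers of maturing erythroid cells, Epb42 had peaks in all 8 libraries, Alas2 in 1 and Slc4a1 in none. The summed percentile of that list was 77.6 to 144.6 in LSK+ and 124.3 to 187.9 in LSK- libraries. Its part in the globin peaks was not tested.

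**Figure D5:**
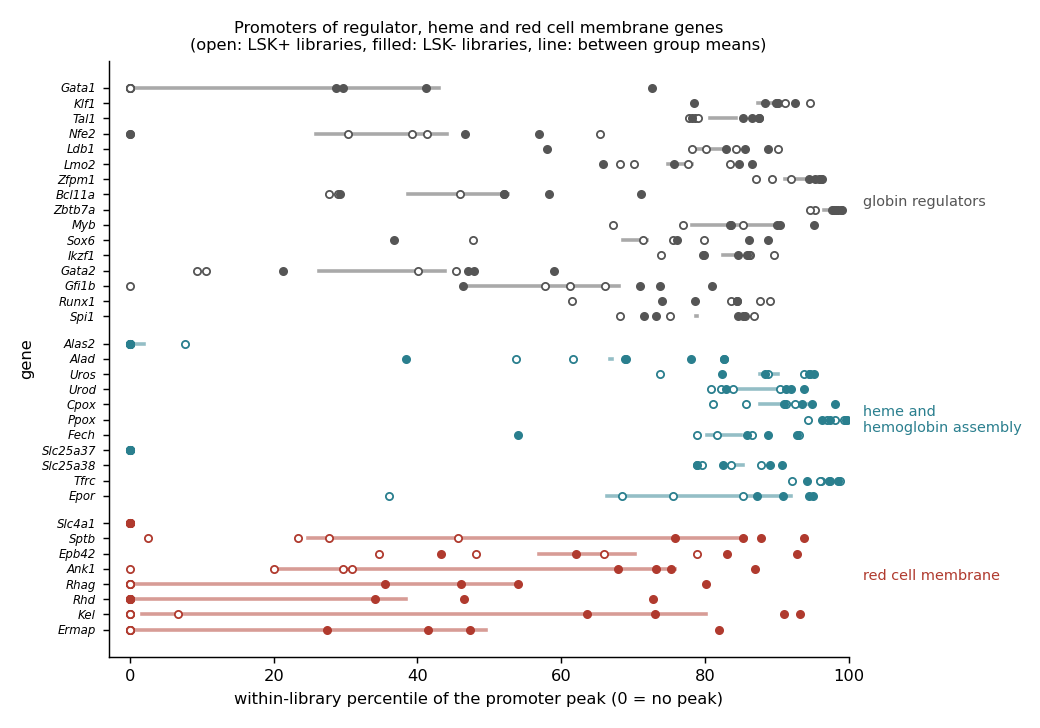
Promoter percentiles (x axis, 0 for no peak) of regulator, heme and red cell membrane genes, 1 gene per row, with open points for the 4 LSK+ and filled points for the 4 LSK- libraries and a line between the group means. The red cell membrane rows show the long lines, while most regulator and heme rows sit to the right in both cell types.

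Motif content was counted by cell type pattern. In 200 bases around the summit, 10 of the 12 globin regions with at least 2 LSK- peaks and no LSK+ peak held a GATA match, against 6 of the 22 other globin regions and 22.9% of the 92019 regions of the series. The exceptions among the 12 were the Hbb-bs promoter and the region 12.7 kb before Hbb-y. The CTCF core AGGNGGC was in 0 of the 12 and in 8 of the 22, against 21.8% of all regions. The CACCC box was in 4 and 5 (28.4% of all regions), the NF-E2 motif in 2 and 3 (8.43%), CAGATG or CAGCTG E-boxes in 5 and 7 (29.0%), the ETS letters CCGGAAG or AGGAAGT in 0 and 4 (20.8%), the RUNX letters TGTGGT in 1 and 5 (24.9%) and the CCAAT box in 5 and 3 (21.7%). These are counts of letters with no test, and base composition was not matched. The shares over all regions mix every cell type pattern. Motifs were not counted over the regions of the series that have peaks in LSK- libraries alone.

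Promoter-proximal regions with a pattern like R2 over the 8 libraries were those at Airn, Tmem56, Gm12470, Tmed6 and Gm15493, at a root mean square distance of 5.90 to 7.99 percentile points among 22950 regions compared. For the region 7.9 kb before Hbb-y the closest were Pmvk, Nlrx1, Tent5a, Smpd5 and Gm26995, at 3.20 to 5.86 points. These are descriptions of rank over 8 libraries, of which each 4 share instrument and read length.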

How the data were processed

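ATAC-seq was measured in 8 libraries, 2 for each of LSK+ WT, LSK+ XistΔ/Δ, LSK- WT and LSK- XistΔ/Δ, with groups and replicate numbers read from the titles. The authors trimmed reads with Trim Galore, aligned them to mm10 with Bowtie2 2.3.5.1, removed reads with mapping quality under 30 and mitochondrial reads with SAMtools 1.10, and called peaks per library with MACS2 2.2.7.1 at a q-value of 0.01, per the labels and the study's methods. A control library, removal of duplicates and a Tn5 shift are not given in the sources used here. The deposited lists hold, for each peak, a fold enrichment (a ratio over local background), the −log10 p, the −log10 q, a score, and a summit offset. These are the authors' values. Counts of reads per peak were not analysed here, so ranks took their place, and depth was read as the background pileup solved from fold and p (100% of peaks matched within a relative tolerance of 0.0001).

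Peaks on chromosomes 1 to 19 and X were merged where they overlapped by 1 bp, and a library's value in a region was the percentile of its strongest peak. limma 3.58.1 (R 4.3.3, trend, group as factor) was fitted over the 92019 regions with a peak in at least 2 libraries, with Benjamini-Hochberg adjustment and a call at 0.05. Peak numbers were tested by exact permutation of labels within the other factor. The code was tested on simulated data. The study's sequencing table gives every replicate 1 library one instrument and the longer reads and every replicate 2 library another instrument and shorter reads, so the number marks a shared sequencing batch. The replicate differences of the 6 pairs of groups correlated at 0.0171 to 0.457. P-values measure the spread between libraries.

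Genes came from GENCODE M21 and promoter sequences and their starts from RefSeq on GRCm38.p6. Of the 7 member genes 6 matched the promoter table. A promoter peak lay within 1 kb of a start site. All member genes, the named enhancers, regions 2 to 40 kb before Hbb-y, and regions in at least 4 libraries were named by rule. The members, lists and rules were chosen with earlier results of these data known. The duplicate mapping measure counted 50- and 100-base words on both strands over chromosomes 1 to 19, X and Y with Python 3.11.15 and NumPy 2.4.6, and it ignores read pairing. Alternatives were another ranking, stricter thresholds, equal list lengths, other windows and leaving out each library. Results of a few listed genes are not reported here.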

Additional observations from a re-analysis of the deposited data

How the results depend on the processing

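Cell type calls among the 34 globin regions went from 0 without to 5 with the replicate block, which called 2.97% of all regions. They were 4 without the variance trend (2108 in all, 2.29%). By summit pileup over background they were 11, with 8 higher and 3 lower in LSK- (15275 in all, 16.6%). With equal list lengths 1 of 20 globin regions was called, R1, beside 1672 of 41777 in all (4.0%). The count stayed at 0 with rank by fold, peaks required to cover at least 50% of a region (31 globin regions) and no filter (47 globin regions). In all regions the counts were 0 without and 2736 with the replicate block. Without single libraries the count was 0 to 5: 1 without LSK+ XistΔ/Δ replicate 2 (R1) and 5 without LSK- XistΔ/Δ replicate 2, with R2 in place of the 41.5 kb region, and 0 without each other library. R1 was among the calls in every setting that made any. Genotype calls among the globin regions were 0 under every setting, though over all regions 73 were made by summit pileup, 1884 without LSK+ XistΔ/Δ replicate 2 and 2312 without LSK- XistΔ/Δ replicate 2. For the number of peaks at the alpha-globin locus by genotype, the XistΔ/Δ minus WT difference turned from 5 to −0.25 with equal list lengths, and for the number of peaks at the beta-globin locus by genotype from 2 to −1.5 without LSK- XistΔ/Δ replicate 1 (−1.5 to 4.17 over the libraries left out). The cause was not tested. With single libraries left out, the number of peaks at the alpha-globin locus by cell type differed by 1.58 to 5.42, the number of peaks at the beta-globin locus by cell type by 5.5 to 9.5, and the alpha-globin genotype difference was 2.75 to 6.75. The replicate block, as sign changes of 4 differences, gave exact p = 0.25 and 0.125 by cell type and 0.125 and 0.5 by genotype (0.125 is the smallest possible). Gene and library pairs with a peak near a member start site were 5 within 1 kb, 15 within 3 kb and 3 with equal list lengths. The 3 kb window took in regions described apart from the promoters, among them the 41.5 kb region for Hbb-bt. The 12 regions with peaks in LSK- libraries alone were 9 to 12 with single LSK- libraries left out, an alternative chosen after seeing the data. Depth limits what a missing peak says, most in LSK+ WT replicate 2.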
